A study of Mus musculus with 12 samples.

Results

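A set of 42 genes that act in mitosis and cytokinesis, chosen by name for their roles, was followed by RNA-seq in primary neural stem cells of the mouse, in 12 libraries. The 42 were among 54356 annotated genes, and all 42 passed the filter on low counts that left 16043 genes for testing. The cells carried either the wild-type genotype or the genotype Chd5-/-, and RNA was taken 3 h or 48 h after the start of neural differentiation, with 3 libraries in each of the 4 groups. Chd5 encodes a chromodomain helicase of the nucleosome remodelling and deacetylase family. All 4 groups had been grown with EGF and FGF, growth factors that keep neural stem cells dividing, and all were moved to neurobasal medium with B-27 to differentiate. The comparison asks how gene expression differs without Chd5 as these cells differentiate. What the replicate numbers stand for is not in the labels, so p-values measure only the spread between these samples, which may be technical. The labels also do not give the deleted part of Chd5.

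Cells enter mitosis when cyclin B bound to the kinase Cdk1 becomes active. The spindle is then built by kinesin motors, the kinetochores tie chromosomes to it, and a checkpoint delays separation until every chromosome is attached. A central spindle and a contractile ring then divide the cell. The RNAs of these proteins are made mainly in the late part of the cell cycle and become scarce when cells stop dividing, which makes them common markers of cycling neural stem cells. In bulk RNA, fewer cycling cells and less RNA in each cell cannot be told apart.

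The libraries held between 14113872 and 18708226 estimated reads. Levels are given as CPM, the read count of a gene scaled to a common library total by the TMM method. At 3 h Chd5 had 3.54, 3.93 and 4.66 CPM in wild type, below the 5.25, 6.31 and 7.06 CPM of the libraries labelled Chd5-/-. At 48 h wild type had 6.59, 7.15 and 5.28 CPM of Chd5, and those labelled Chd5-/- had 5.7, 3.34 and 2.96 CPM. The summed level of the gene thus showed no loss at 3 h, so the genotype is given throughout as the label has it. The neural stem cell genes Nes, Sox2, Fabp7 and Vim were present in every library, Prom1 stayed under 1 CPM in all, and the 5 markers of microglia and macrophages were all under 1 CPM.

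In 3 groups, 1 library stood apart. In wild-type replicate 1 at 3 h, 82 ribosomal protein genes took 14.73% of the reads, against 3.3% to 4.11% in all others, and the read-weighted length of its transcripts was 1805 bases against 3040 to 3304. In replicate 2 of both genotypes at 48 h the mitotic RNAs were far above the other libraries of that time. The 42 genes took 0.5327% and 0.5288% of the reads of these 2 libraries, against 0.0415% to 0.0432% in the other 4 libraries at 48 h. Results are therefore given with all 12 libraries and in a fit of the 9 libraries without these 3. Since 2 of the 3 were left out for the level of the very genes described here, values of the 9 describe the remaining libraries. In that fit, wild type at 3 h and both genotypes at 48 h had 2 libraries each.

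Most of the members' promoters that could be searched carry a pattern known from genes that are switched on late in the cell cycle. It is shown here because the members moved together. CCAAT boxes are bound by the factor NF-Y, and the TTTGAA core of the cell cycle genes homology region is bound by MuvB complexes, which repress these genes in resting cells. Windows from 250 bases before to 50 bases after the start site were searched for the letters CCAAT and TTTGAA, each on both strands. RefSeq promoters on build GRCm38.p6 matched 36 of the 42 genes. The unmatched members were Aurkb, Incenp, Tpx2, Ccna2, Kif20a and Foxm1. CCAAT stood in 26 of the 36 genes (72.2%) against 41.1% of all 27025 genes with a promoter, and TTTGAA stood in 28 (77.8%) against 20.2%. TTTGAA within 50 bases of the start site was found in 25 (69.4%) against 5.7% of all genes, and both motifs stood together in 23 (63.9%) against 8.0%. Birc5, Kif18a, Mad2l1, Nuf2 and Nusap1 had neither. The motifs overlapped each other in 1 member, Cdca8.

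The 4 members with both motifs and the highest level per length at 3 h were the kinase Cdk1 (chr10:69352883-69353142, minus strand), the topoisomerase Top2a (chr11:99024160-99024419, minus strand), the midzone protein Prc1 (chr7:80294221-80294480, plus strand) and the kinesin Kif23 (chr9:61946770-61947029, minus strand). Each is printed 5′ to 3′ on the strand of the gene, from 230 bases before to 30 bases after the start site, with CCAAT and TTTGAA or their other-strand forms in capitals.
Cdk1: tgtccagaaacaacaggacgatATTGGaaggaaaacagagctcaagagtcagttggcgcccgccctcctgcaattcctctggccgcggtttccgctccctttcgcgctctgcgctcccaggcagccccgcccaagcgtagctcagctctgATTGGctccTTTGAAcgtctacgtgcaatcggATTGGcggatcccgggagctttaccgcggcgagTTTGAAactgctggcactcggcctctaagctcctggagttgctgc
Top2a: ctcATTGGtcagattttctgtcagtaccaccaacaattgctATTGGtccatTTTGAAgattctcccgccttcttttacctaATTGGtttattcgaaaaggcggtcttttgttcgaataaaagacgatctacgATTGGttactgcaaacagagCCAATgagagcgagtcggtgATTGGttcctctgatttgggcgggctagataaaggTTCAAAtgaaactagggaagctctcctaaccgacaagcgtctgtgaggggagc
Prc1: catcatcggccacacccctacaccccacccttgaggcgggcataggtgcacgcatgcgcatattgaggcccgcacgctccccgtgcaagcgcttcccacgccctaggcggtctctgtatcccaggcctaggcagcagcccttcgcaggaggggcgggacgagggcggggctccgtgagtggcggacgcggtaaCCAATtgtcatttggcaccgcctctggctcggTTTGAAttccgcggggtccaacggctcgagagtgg
Kif23: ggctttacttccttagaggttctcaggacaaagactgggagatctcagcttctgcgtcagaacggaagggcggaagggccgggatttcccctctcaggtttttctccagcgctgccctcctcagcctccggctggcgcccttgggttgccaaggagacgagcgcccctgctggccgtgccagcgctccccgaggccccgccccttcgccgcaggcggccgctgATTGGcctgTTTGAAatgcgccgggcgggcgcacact
In Cdk1 the TTTGAA nearest the start began at position -15 and CCAAT boxes at -48, -80 and -208. Top2a held 6 CCAAT boxes, with the nearest at -58, and TTTGAA forms at -23 and -179. In Prc1 a single CCAAT at -37 was followed by TTTGAA at -5. Kif23 had both right at the start site, at -7 and 3. Among matched members, the genes with both motifs had a median log2 fold change over time of -4.49 in the 9 libraries (23 genes), close to the -4.57 of the 13 other genes, in wild type. In the libraries labelled Chd5-/- the medians were -4.72 and -4.49. These are descriptions, since a match of letters does not show a bound site.

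At 3 h the whole set was expressed. Over the 5 libraries at 3 h other than wild-type replicate 1, the highest level per length was that of Cdk1, the kinase that starts mitosis, at 396 TPM (SD 23.3; TPM is a level scaled to transcript length and library total). Prc1, which bundles the microtubules of the central spindle, followed at 186 TPM (SD 9.11). Top2a, which untangles sister DNA, stood at 181 TPM (SD 7.89) and the checkpoint protein Mad2l1 at 177 TPM (SD 29.6), so these 3 did not differ beyond their spread. At the low end were the checkpoint kinase Ttk at 13.4 TPM (SD 0.84) and the cytokinesis kinesin Kif14 at 14.6 TPM (SD 8.28), which overlapped too. The motor Cenpe, which slides chromosomes to the spindle equator, lay at 20.6 TPM (SD 3.47).

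**Figure D1:**
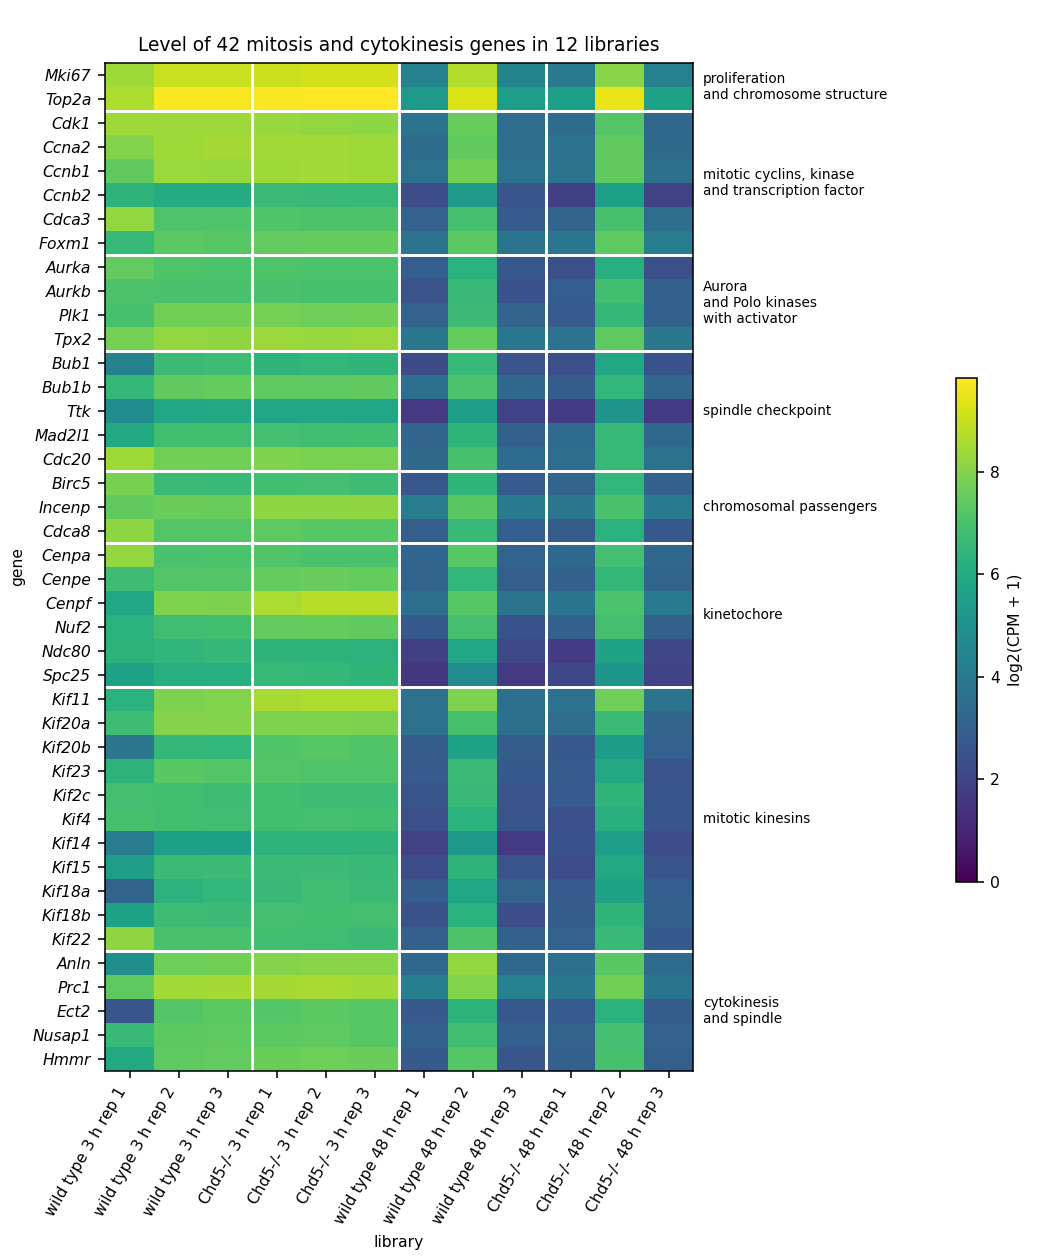
Level of the 42 genes (rows, grouped by role) in each of the 12 libraries (columns), as log2(CPM + 1) on the colour scale. The 4 libraries of replicates 1 and 3 at 48 h are dark for every gene, replicate 2 of both genotypes at 48 h resembles the 3 h libraries, and wild-type replicate 1 at 3 h differs from its group in both directions.

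Between 3 h and 48 h, the 42 genes came down to a few percent of their starting level in 4 of the 6 libraries taken at 48 h. Their summed level was 5850, 7880 and 7940 CPM in wild type at 3 h and 8720, 8860 and 8750 CPM in the libraries labelled Chd5-/-. The sums at 48 h were 366, 5780 and 371 CPM in wild type and 376, 5110 and 384 CPM in the libraries labelled Chd5-/-. All 3 h libraries lay above all 48 h libraries for 17 of the 42 genes in wild type (16.8% of all genes) and for 42 of 42 in the libraries labelled Chd5-/- (32.4%). Replicate 2 was the high library of both genotypes, so the spread within each 48 h group was wide. The highest sum at 48 h still lay below the lowest sum at 3 h in both genotypes, narrowly in wild type (5780 against 5850 CPM).

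Mki67 (ENSMUSG00000031004, chromosome 7, 135689784 to 135716361, GRCm38), the proliferation marker that coats mitotic chromosomes, stood at 347, 509 and 518 CPM in wild type at 3 h and at 19.1, 417 and 20.2 CPM at 48 h. Libraries labelled Chd5-/- had 529, 581 and 584 CPM and then 15.7, 268 and 18.2 CPM. Replicate 2 at 48 h was above wild-type replicate 1 at 3 h, so the wild-type groups overlapped, while those labelled Chd5-/- did not. Top2a went from 396, 846 and 861 CPM to 38.2, 612 and 44.7 CPM in wild type, and from 866, 898 and 910 CPM to 46.3, 747 and 49.4 CPM in the libraries labelled Chd5-/-. The pattern was that of Mki67.

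Cdk1, Ccna2 and Ccnb1 were among the genes with the least RNA left, at 3.36%, 2.9% and 3.67% of the 3 h level in wild-type replicates 1 and 3. The cyclin Ccnb2 stood at 6.79% there and at 2.74% in the same replicates labelled Chd5-/-. Cdk1 stood at 345, 335 and 339 CPM in wild type at 3 h and at 12.3, 186 and 10.4 CPM at 48 h, and in the libraries labelled Chd5-/- at 318, 301 and 288 CPM and then at 10.2, 147 and 8.45 CPM. Its 3 h libraries lay above all 48 h libraries in both genotypes. Ccna2, the cyclin of S phase and early mitosis, went from 251, 347 and 359 CPM to 10.1, 170 and 10.4 CPM in wild type, and from 351, 353 and 346 CPM to 12.3, 171 and 9.59 CPM in the libraries labelled Chd5-/-. Ccnb1, the main mitotic cyclin, went from 170, 326 and 319 CPM to 11.7, 211 and 11.9 CPM in wild type and from 340, 349 and 344 CPM to 13.3, 171 and 11.3 CPM in the others. Wild-type replicate 1 at 3 h was here below replicate 2 at 48 h. Foxm1, the transcription factor that drives many of these genes, had more RNA left at 48 h, at 96, 163 and 156 CPM and then 12.5, 163 and 12.6 CPM in wild type. In the libraries labelled Chd5-/- Foxm1 stood at 178, 181 and 182 CPM and then at 13.7, 167 and 16.7 CPM.

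The Aurora and Polo kinases, which order the events of mitosis, showed the same 2 levels at 48 h. Aurka, the spindle pole kinase, stood at 177, 138 and 133 CPM in wild type at 3 h and at 6.66, 76.4 and 5.51 CPM at 48 h. Aurkb, the kinase of the chromosomal passenger complex, stood at 135, 129 and 127 CPM and then at 4.7, 97 and 4.6 CPM. Plk1 stood at 126, 214 and 212 CPM and then at 7.63, 107 and 8.29 CPM. For all 3, each wild-type library at 3 h was above each at 48 h. In the spindle checkpoint, the kinase gene Bub1 stood at 19.1, 102 and 109 CPM in wild type at 3 h and at 3.79, 94.4 and 5.06 CPM at 48 h, so that replicate 1 at 3 h lay under replicate 2 at 48 h. Cdc20, which activates the anaphase-promoting complex, stood at 348, 214 and 210 CPM and then at 9.59, 126 and 9.88 CPM, without overlap.

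Among the kinetochore genes, Spc25 (chromosome 2, 69193895 to 69206194), a subunit of the Ndc80 complex, had the fewest reads of any member, 33 in wild-type replicate 1 at 48 h. Wild type had 47.8, 70.9 and 71.3 CPM of Spc25 at 3 h and 2.02, 26.8 and 2.22 CPM at 48 h. The libraries labelled Chd5-/- had 95.1, 93.4 and 84.7 CPM and then 3.34, 35.3 and 3.03 CPM. The groups of the 2 times did not overlap in either genotype. The mitotic kinesins followed the same course. Kif11, the motor that pushes spindle poles apart, stood at 77.5, 239 and 247 CPM in wild type at 3 h and at 11.8, 240 and 11.2 CPM at 48 h, where replicate 2 was as high as replicates 2 and 3 at 3 h. Kif20b, a motor of the midbody, went from 142, 153 and 144 CPM at 3 h to 5.7, 42.5 and 7.63 CPM at 48 h in the genotype labelled Chd5-/-.

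In wild type, the cytokinesis genes included the member whose replicate 2 at 48 h was highest relative to its 3 h level. Anln (chromosome 9, 22332012 to 22389188), which links the contractile ring to the membrane, stood at 29.1, 204 and 215 CPM in wild type at 3 h and at 8.61, 298 and 9.03 CPM at 48 h. Its wild-type replicate 2 at 48 h was the highest of all wild-type libraries. In the libraries labelled Chd5-/- Anln stood at 259, 270 and 268 CPM and then at 11, 158 and 9.78 CPM. Ect2, the exchange factor that switches on RhoA at the division plane, stood at 5.27, 147 and 163 CPM in wild type at 3 h and at 5.62, 81 and 5.45 CPM at 48 h. Replicate 1 at 3 h was thus as low as replicates 1 and 3 at 48 h.

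With all 12 libraries, none of the 42 genes passed the quasi-likelihood test of edgeR at an adjusted p under 0.05 in either time comparison, although 10.1% of all 16043 genes were called lower in wild type and 8.03% in the libraries labelled Chd5-/-. The median log2 fold change of the set was -1.73 in wild type, against 0.09 for all genes, and -2.24 in the libraries labelled Chd5-/-, against 0.04. At an unadjusted p under 0.05 there were 2 genes in wild type and 7 in the libraries labelled Chd5-/-. Every gene called above also meets this looser threshold, so at least 10.1% and 8.03% of all genes were lower by it. In wild type the smallest p belonged to Spc25 (-2.62 ± 1.11 SE, edgeR adjusted p = 0.107), Cdc20 (adjusted p = 0.124), Aurka (0.167) and Cdca8 (0.168). In the libraries labelled Chd5-/- it belonged to Kif20b (-2.98 ± 1.04 SE, edgeR adjusted p = 0.0638), Cenpf (0.0941), Incenp (0.103) and Spc25 (0.105). The tools differed here. limma-voom called 11 genes lower in wild type (8.78% of all genes) and 21 in the other genotype (9.72%). DESeq2 gave an adjusted p to 2 of the 42 in every comparison and called 0 of them lower (14.9% and 12.2% of all genes).

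These counts rested on the 2 libraries of replicate 2. Both stood out by their high levels of these same genes, so leaving them out favours calls of a fall. The counts that follow therefore describe the remaining libraries and do not test the fall. Without the wild-type one, edgeR called 39 of the 42 genes lower in wild type (12.7% of all genes), and without the one labelled Chd5-/- it called 38 lower in that genotype (10.2%). With both left out all 42 fell in both genotypes, against 16.9% and 16.2% of all genes, and all 42 fell in the 9 libraries too. There 38.4% of all genes were called lower in wild type and 40.1% in the libraries labelled Chd5-/-, so calls were common there, and the set's medians of -4.50 and -4.64 are set against medians of 0.02 and -0.00 over all genes. All 42 stayed called lower in each fit that left out 1 more of the 9, and these fits share that choice of libraries.

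In the 9 libraries, the log2 fall in wild type was largest for Ccna2 (-5.15 ± 0.06 SE), Spc25 (-5.11), Hmmr, a spindle-binding hyaluronan receptor (-4.99), and Cdk1 (-4.94). It was smallest for Incenp, the scaffold of the passenger complex (-3.6 ± 0.06 SE), the kinesin Kif18a (-3.62), Foxm1 (-3.72) and Kif20b (-3.87). In the libraries labelled Chd5-/- it was largest for the cyclin gene Ccnb2 (-5.22), Mki67 (-5.09), Cdk1 (-5.06) and Ccna2 (-5.03), and smallest for Foxm1 (-3.61), Mad2l1 (-3.65), and Birc5 and Cdca3 (both -3.92). edgeR adjusted p-values of these genes lay between 9.43e-16 and 1.47e-12. They describe the 9 libraries only, since replicate 2 at 48 h was left out for its level of these genes. By role, the medians in wild type ran from -4.18 for the 3 chromosomal passengers to -4.66 for the Aurora and Polo kinases with their activator Tpx2. For the other genotype they ran from -4.33 for the passengers to -4.94 for the cyclin group.

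The fall can be read as a share of the 3 h level. In replicates 1 and 3 of wild type at 48 h, the median gene stood at 4.58% of the mean of wild-type replicates 2 and 3 at 3 h, with a range from 2.9% (Ccna2) to 8.56% (Incenp). In the same replicates labelled Chd5-/- the median was 4.09%, from 2.74% (Ccnb2) to 8.41% (Foxm1). In replicate 2 the median was 70.8% in wild type, from 37.7% (Spc25) to 143% (Anln), and 53.7% in the library labelled Chd5-/-, from 29% (Kif20b) to 92.8% (Foxm1). Anln, Cenpa, Nuf2, Kif22 and Foxm1 exceeded 100% in wild-type replicate 2, and no member did in the one labelled Chd5-/-. Replicate 2 was over 5 times as high as both other libraries of its group in both genotypes for 42 of the 42 genes, which held for 2.23% of all 16043 genes. The ratio of replicate 2 to the mean of the other pair had a median of 15.2 in wild type and 13.7 in the libraries labelled Chd5-/-.

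**Figure D2:**
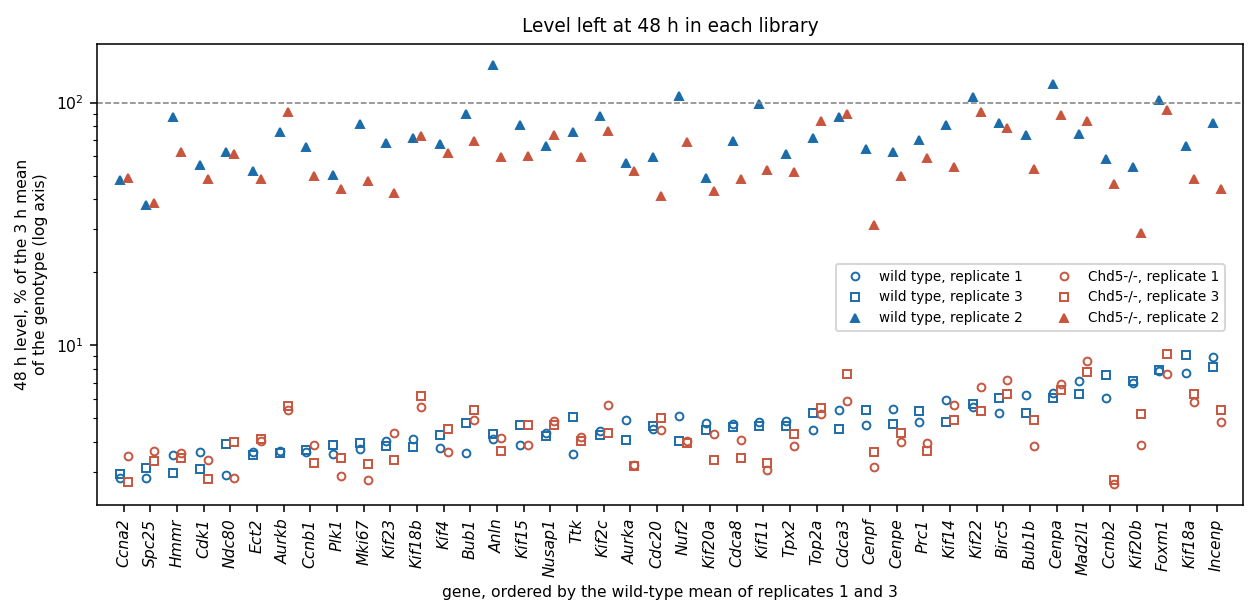
Level of each of the 42 genes at 48 h in each library, as a percentage of the 3 h mean of its genotype (log axis; for wild type the mean of replicates 2 and 3). Open symbols are replicates 1 and 3, filled triangles are replicate 2, and the dashed line marks 100%. Open symbols stay under 10% for every gene, and triangles lie from 29% to 143%.

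The members differed in how high replicate 2 stood. Hmmr stood at 5.98, 149 and 5.06 CPM in wild type at 48 h, and its ratio of 26.9 was behind only that of Anln (33.8). Kif20b stood at 6.41, 49.6 and 6.53 CPM, with the lowest ratio of the 42 (7.67), and it also had the lowest in the libraries labelled Chd5-/- (6.38). Between the 2 replicate 2 libraries, the median gene stood at 0.867 of the wild-type level in the one labelled Chd5-/-, from 0.53 for Anln to 1.32 for Spc25. Each is a single library, so these ratios carry no test.

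Other genes moved with replicate 2. Gfap, an astrocyte filament gene, stood at 1.01 and 24.8 CPM in replicate 2 of wild type and of the libraries labelled Chd5-/-, against 269 to 448 CPM in the other 4 libraries at 48 h. Dcx, a gene of young neurons, stood at 0.337 and 0.134 CPM against 7.08 to 16.5 CPM, and Tubb3, a neuronal tubulin, at 7.62 and 16 CPM against 79.9 to 121 CPM. The 9 markers of neural stem and radial glia cells summed to 4240 and 4510 CPM against 5400 to 6080 CPM. The Notch targets among them went opposite ways, with Hes5 at 7.35 and 48.6 CPM against 89.5 to 138 CPM and Hes1 at 70.7 and 56.1 CPM against 16.3 to 34.2 CPM. The summed level of all 8 neuronal markers was 562 and 719 CPM against 803 to 1210 CPM, and Map2 alone made 533 and 702 CPM of it in replicate 2. Gap43, also on the neuronal list, went the other way in wild type, at 20.4 CPM in replicate 2 against 3.66 and 2.84 CPM. It stayed under 1 CPM in the libraries labelled Chd5-/- at 48 h. The 6 astrocyte markers summed to 3320 CPM in wild-type replicate 2, of which Sparcl1 made 3280 CPM, and to 757 CPM in replicate 2 labelled Chd5-/-, against 2140 to 2690 CPM. The 9 oligodendrocyte lineage markers were higher in replicate 2, at 2130 and 2140 CPM against 1290 to 1460 CPM. The part of these differences in the levels of the mitotic genes was not tested.

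Between the genotypes at 3 h, 0 of the 42 genes passed in edgeR with all 12 libraries, where 6.71% of all genes were called, and 0 had an unadjusted p under 0.05. limma-voom called 0 (6.2% of all genes) and DESeq2 0 of 2 (13.6%). The median log2 fold change was 0.25, against -0.02 for all genes. The smallest p belonged to Kif20b (1.15 ± 0.98 SE, edgeR adjusted p = 0.508), Cenpf (1.23 ± 1.10), Kif14 (1.17 ± 1.10) and Kif11 (1.04 ± 1.27). For 18 of the 42 genes every library labelled Chd5-/- exceeded every wild-type one, and for Cdk1, Aurkb and Kif22 every one was lower. That is 42.9% of the members against 23.9% of all genes above, and 7.14% against 21.1% below.

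Several spindle and kinetochore genes had higher values in the libraries labelled Chd5-/- than in any wild-type library, although none passed with all 12. Cenpf (ENSMUSG00000026605, chromosome 1, 189640606 to 189688086), a large protein of the outer kinetochore, had 56.7, 240 and 239 CPM in wild type against 384, 442 and 435 CPM in the other genotype. Kif14 (chromosome 1, 136466343 to 136531511) stood at 16.9, 45.8 and 46.3 CPM against 80.3, 83 and 82.3 CPM. Kif11 stood at 77.5, 239 and 247 CPM against 375, 390 and 391 CPM. All 3 were lowest in wild-type replicate 1, and in CPM the genotypes did not overlap with or without it. In TPM Kif14 did overlap, at 0.4, 15.6 and 4.74 in wild type against 25.5, 8.24 and 18.8 in the libraries labelled Chd5-/-. Kif20b stood at 13.9, 92.4 and 91.3 CPM against 142, 153 and 144 CPM. Nuf2, a subunit of the Ndc80 complex, stood at 77.3, 113 and 114 CPM against 177, 180 and 172 CPM. Incenp stood at 172, 194 and 188 CPM against 287, 284 and 292 CPM. In each of these 6 genes every library labelled Chd5-/- was above every wild-type library in CPM. Markers of other cell types differed between the genotypes at 3 h as well. The 5 fibroblast and smooth muscle markers summed to 573 to 606 CPM in the libraries labelled Chd5-/- against 5.99 to 9.93 CPM, nearly all of it Acta2, with Col1a2 and Dcn under 1 CPM in all libraries. The 6 astrocyte markers summed to 35.2 to 39.9 CPM against 510 to 1190 CPM, nearly all of the difference from Sparcl1 (8.71 to 10.7 against 450 to 1150 CPM), while Aldh1l1 and S100b overlapped between the genotypes. Their part in the levels of the mitotic genes was not tested.

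In the 9 libraries, the test at 3 h called 20 of the 42 genes higher with the Chd5-/- label and 4 lower, a total of 57.1%, against 27.2% and 25.3% of all genes, or 52.5% in either direction. The share called was near the background, and the set's median was 0.06. The largest differences were those of Kif14 (0.83 ± 0.05 SE, edgeR adjusted p = 6.82e-09), Cenpf (0.81 ± 0.06, edgeR adjusted p = 5.65e-08), Kif11 (0.67 ± 0.03, edgeR adjusted p = 2.81e-09) and Kif20b (0.67 ± 0.05, edgeR adjusted p = 8.35e-08). Nuf2 (0.64), Incenp (0.6) and Ccnb2 (0.58) were called higher as well. Cdca3, Kif15, Kif2c and Mad2l1 had the smallest, all within 0.01 of no change. The 4 genes called lower were Bub1 (-0.3), Kif22 (-0.21), Cdk1 (-0.16) and Ndc80 (-0.15). By role, all 3 chromosomal passengers, 4 of the 6 kinetochore genes and 1 of the 5 checkpoint genes, Cdc20 (0.15), were called higher, beside 27.2% of all genes. These groups are small, and small changes were called, such as the passengers Birc5 (0.16) and Cdca8 (0.13). The counts by role are therefore descriptions. In the 10 libraries that keep wild-type replicate 1, 2 genes were called higher (7.39% of all genes), Incenp (0.65, edgeR adjusted p = 0.00803) and Nuf2 (0.81, edgeR adjusted p = 0.0207).

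**Figure D3:**
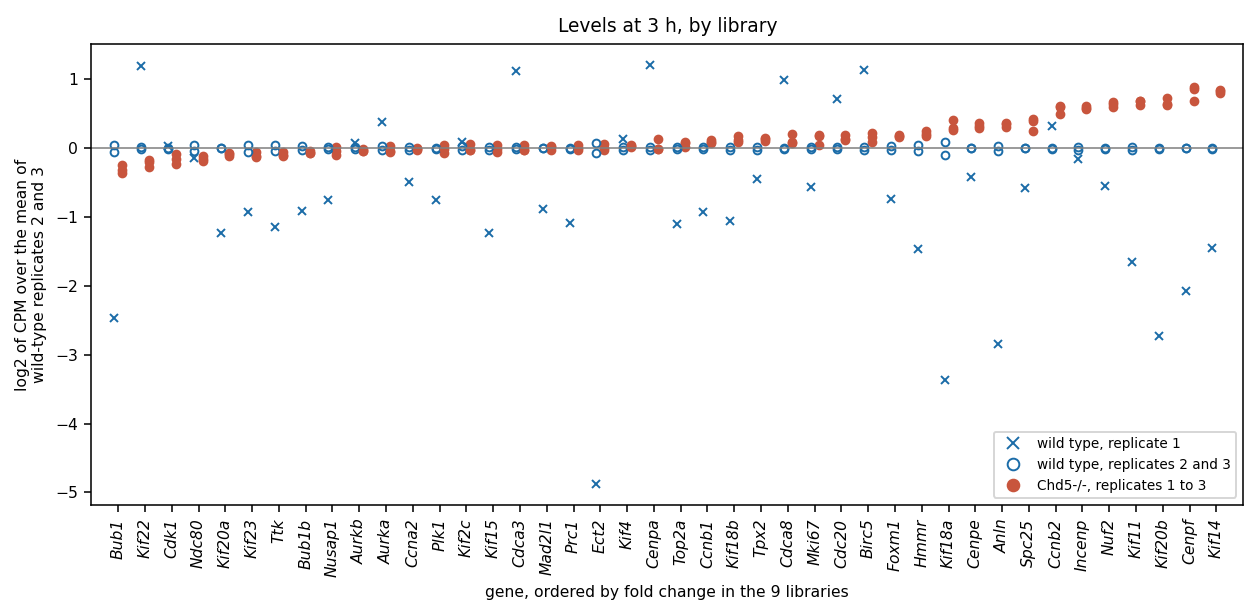
Level of each gene at 3 h in each library, as log2 of CPM over the mean of wild-type replicates 2 and 3. Crosses are wild-type replicate 1, open circles wild-type replicates 2 and 3, filled circles the 3 libraries labelled Chd5-/-. Filled circles sit apart from the open ones at the right end (Kif14, Cenpf, Kif20b, Kif11), while crosses range from -4.88 (Ect2) to 1.22 (Cenpa).

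Wild-type replicate 1 at 3 h stood far from the other wild-type libraries in these genes. It lay below both other wild-type libraries for 30 of the 42 genes (49.7% of all genes did) and above both for 12 (44.8%). The 12 were Cdk1, Ccnb2, Aurka, Aurkb, Cdc20, Kif2c, Kif4, Kif22, Birc5, Cdca8, Cdca3 and Cenpa. Cenpa, the histone variant of centromeres, stood at 301, 128 and 132 CPM in replicates 1, 2 and 3, a ratio of 2.33 to the others. Kif22, a motor on chromosome arms, stood at 292, 129 and 127 CPM. At the other end Ect2 stood at 5.27, 147 and 163 CPM and Kif18a at 8.1, 78.5 and 89.2 CPM.

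The ratio of replicate 1 to replicates 2 and 3 moved with the length of the transcript that took most reads of the gene. That transcript held as little as 24.2% of the reads of a gene (Prc1) and 26.4% in Cenpa, so its length stands only loosely for such genes. Spearman's rho over the 42 genes was -0.64 and Pearson's r on log2 length was -0.55. These are descriptions across genes measured in the same 3 libraries. For the 17 genes with a main transcript under 2500 bases the median log2 ratio was 0.08, and 10 of them were higher in replicate 1. For the 25 longer genes the median was -1.11, and 2 were higher. The genes with the largest difference between genotypes at 3 h had main transcripts of 8770 bases for Kif14, 11130 for Cenpf, 4819 for Kif11 and 5423 for Kif20b, and the next in size had 2068 for Nuf2, 2643 for Incenp and 1531 for Ccnb2. The difference was present without replicate 1, and the part of transcript length in it was not tested.

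**Figure D4:**
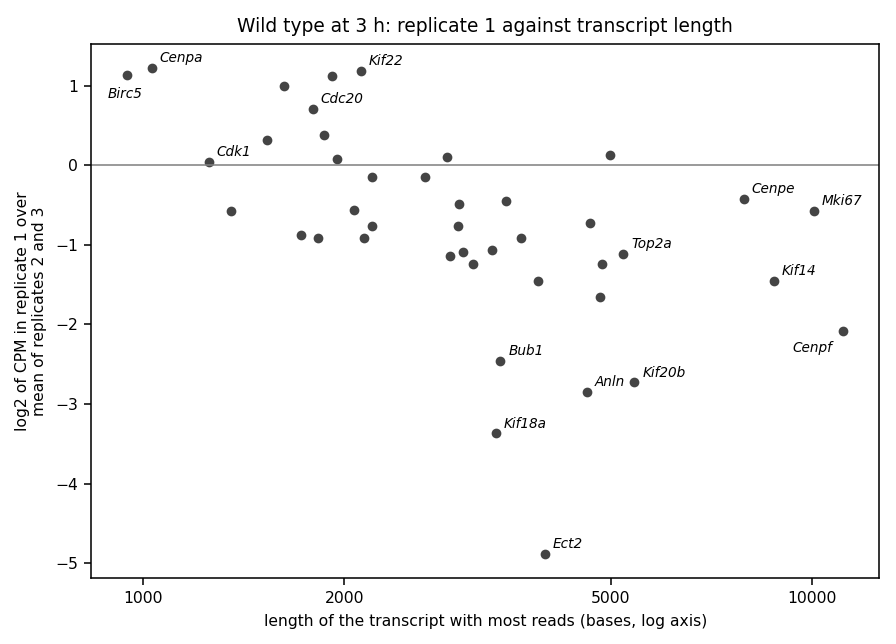
Log2 ratio of CPM in wild-type replicate 1 over the mean of replicates 2 and 3 at 3 h (vertical axis) against the length of the transcript with most reads in bases (log axis), 1 point per gene, 42 genes. Of the 17 genes under 2500 bases, 10 lie above 0, among them Cenpa (1.22). Of the 25 longer genes 2 do, and Ect2 (-4.88) and Cenpf (-2.08) lie below.

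At 48 h, with all 12 libraries, 0 of the 42 genes passed between the genotypes in edgeR, where 2.74% of all genes were called. None had an unadjusted p under 0.05. limma-voom called 0 (3.0% of all genes) and DESeq2 0 of 2 (6.0%). For 0 of the 42 genes did the libraries of the genotypes not overlap, in either direction, against 12.3% and 10.9% of all genes. For all 42, replicate 2 stood far above the other libraries in both genotypes, so overlap was given by that pattern. The count therefore does not show that the genotypes had equal levels. The median log2 fold change was -0.16. The smallest p belonged to Kif23, the centralspindlin motor (-0.69 ± 1.13 SE, edgeR adjusted p = 0.986), Anln (-0.82), Mki67 (-0.60) and Bub1 (-0.60). The sign of the set turned with replicate 2. Without the wild-type library of that number the median was 2.4, without the one labelled Chd5-/- it was -2.57, and in the 9 libraries it was 0.07.

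In the 9 libraries, the test at 48 h called 11 genes higher with the Chd5-/- label and 5 lower, against 25.6% and 21.6% of all genes, which is 38.1% of the members against 47.2%. Kif14 stood at 2.75 and 2.22 CPM in wild-type replicates 1 and 3 and at 4.64 and 4.04 CPM in those labelled Chd5-/- (0.82 ± 0.15 SE, edgeR adjusted p = 0.000656). Kif18b, a kinesin that shortens spindle microtubules, stood at 4.4 and 4.09 CPM against 6.56 and 7.25 CPM (0.72, edgeR adjusted p = 0.000318). Ccnb2 went the other way, at 4.03 and 5 CPM against 2.66 and 2.78 CPM (-0.72, edgeR adjusted p = 0.00359). Within the 9, the edgeR adjusted p of Ccnb2 reached 0.0526 without wild-type replicate 3, where its log2 fold change was -0.56. In replicate 2, outside this fit, Ccnb2 was higher with the Chd5-/- label, at 45.9 CPM against 38.8 CPM in wild type. Its log2 fold change with all 12 libraries was 0.1 ± 1.06 SE. Spc25 (0.6, edgeR adjusted p = 0.0268) was no longer called when any 1 of the 4 libraries at 48 h was left out, with an adjusted p of up to 0.13. Ccnb2, Aurka (-0.5), Bub1b (-0.44), Prc1 (-0.4) and Kif20a (-0.34) were the genes called lower. In the 10 libraries Aurkb alone was called higher (0.56, edgeR adjusted p = 0.0478), with 2.48% of all genes. Bub1, Kif15, Kif20b and Kif4 had the smallest differences in the 9, between 0.0 and 0.06. The count of genes called higher dropped to 5 without wild-type replicate 3 and to 7 without each of the other 3, and the count called lower dropped to 2 without wild-type replicate 1.

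The change over time was also compared between genotypes, as the log2 difference at 48 h less that at 3 h. With all 12 libraries 0 of the 42 genes passed in edgeR (0.231% of all genes were called) and 0 had an unadjusted p under 0.05. limma-voom called 0 (0.243% of all genes) and DESeq2 0 of 2 (2.51%). The smallest p belonged to Kif20b (-1.31, edgeR adjusted p = 0.738), Cenpf (-1.39), Anln (-1.65) and Kif11 (-1.25), and all 4 turned positive without wild-type replicate 2 at 48 h, to 0.37, 0.91, 1.93 and 1.68. The fit of 9 libraries called 4 genes with a positive and 9 with a negative difference, where 19.3% and 21.1% of all genes were called. That is 31.0% of the members against 40.4%. With 10 libraries 1 member was called, Ccnb2 (-1.21), on the negative side with 1.77% of all genes. The largest in the 9 was that of Ccnb2 (-1.3 ± 0.18 SE, edgeR adjusted p = 6.49e-05). With the Chd5-/- label Ccnb2 was higher at 3 h and lower in replicates 1 and 3 at 48 h, but not in replicate 2 (45.9 against 38.8 CPM). Incenp (-0.73), Kif20b (-0.62), Aurkb (0.61) and Kif18b (0.59) followed.

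The other genes of the pathway were read from lists of genes named for their roles. With all 12 libraries, 5 of 59 other mitosis genes fell in wild type and 5 in the libraries labelled Chd5-/-, a share near that of all genes. Over all genes 10.1% and 8.03% were called lower and 12.7% and 14.1% higher, and the counts of the other lists stand beside these shares. In wild type they included the kinetochore gene Ska2 (-1.83 ± 0.41 SE, edgeR adjusted p = 0.0125), Ube2s, which builds ubiquitin chains for the anaphase-promoting complex (-2.96), and the centromere genes Cenpw (-1.72) and Cenpp (-3.03). None of 8 condensin genes and none of 9 cohesin genes passed in either genotype in edgeR. At an unadjusted p under 0.05 there were 1 and 3 condensin genes and 0 and 3 cohesin genes in wild type and in the libraries labelled Chd5-/-. All called genes meet that looser threshold too, so the shares of all genes given above are its lower bounds. Of 15 genes of the anaphase-promoting complex and its activator Fzr1, 4 fell in wild type and 1, Fzr1, in the libraries labelled Chd5-/- (-1.1, adjusted p = 0.044). Of 18 tested kinesins that carry cargo rather than build the spindle, 4 rose and 2 fell in wild type, with the axonal motor Kif5a higher at 48 h (2.72, adjusted p = 0.0163).

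In the 9 libraries, 58 of 59 other mitosis genes fell in wild type, with a median log2 fold change of -4.2, and 58 fell and 1 rose in the libraries labelled Chd5-/- (-4.15). All 8 condensin genes fell in both genotypes, with medians of -3.17 and -3.19, where Ncaph, the kleisin of condensin I, changed by -4.05 and -5.23. Cohesin, which holds sister chromatids together and also folds chromatin in resting cells, fell in 8 of 9 genes with medians of -0.86 and -0.81. The anaphase-promoting complex had 3 genes higher and 9 lower of 15 in wild type, with a median of -0.32. Of 20 genes of MuvB, MYB and E2F control, 15 fell and 3 rose in wild type (median -1.53), and the MYB factor Mybl2 changed by -4.24 and the repressor E2f7 by -5.29. The 20 transport kinesins had 12 higher and 5 lower (median 0.4), and 15 genes of general cytokinesis and abscission had 7 higher and 7 lower (median 0.06). All 20 DNA replication genes fell in both genotypes, with medians of -3.6 and -3.3, among them the ribonucleotide reductase gene Rrm2 (-5.19 and -4.98). Over all genes, 38.4% and 40.1% were called lower and 37.6% and 38.9% higher in these 9 libraries.

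**Figure D5:**
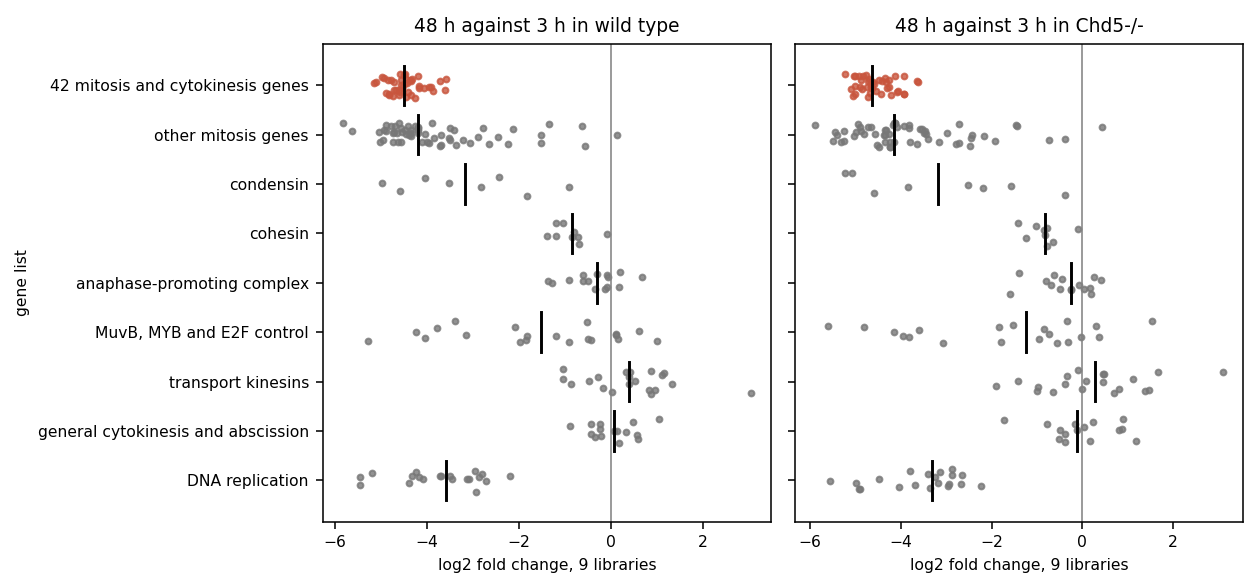
Log2 fold change from 3 h to 48 h in the 9 libraries for each gene of the 42 (red) and of 8 other lists (grey), in wild type (left) and in libraries labelled Chd5-/- (right); vertical bars are list medians. The 42 genes lie between -5.22 and -3.6, cohesin has medians of -0.86 and -0.81, and the transport kinesins lie on both sides of 0.

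Reads within a gene were shared among transcripts by the deposited estimates, and 2 of the 42 genes had a main transcript that is not coding or is marked for decay. Of the 7 genes named for the largest genotype differences at 3 h, nearly all reads lay on 1 coding transcript in Cenpf (Cenpf-204, 97.1% of the reads of the gene over all libraries), Kif11 (Kif11-201, 99.8%), Nuf2 (Nuf2-201, 95.4%) and Ccnb2 (Ccnb2-201, 100%). Kif20b had 47.3% on the coding Kif20b-203 and 28.2% on Kif20b-207, which is annotated for nonsense-mediated decay, and Incenp had 61.5% on the coding Incenp-205. Kif14 was split too, with 42.6% on the coding Kif14-201 and 40.6% on Kif14-208, a transcript annotated for nonsense-mediated decay. Kif14-208 held 0, 309.7 and 322.3 estimated reads in wild type at 3 h and 579.1, 632.4 and 637.4 in the libraries labelled Chd5-/-. It thus lay apart between genotypes as the summed reads of the gene did, though not its TPM. Cenpa-208, a Cenpa transcript with a retained intron, had 2.6 to 283 reads in the 6 libraries at 3 h and 986.5 and 561.3 in replicate 2 of the 2 genotypes at 48 h, against 29.4 to 38.1 in the other 4. In wild-type replicate 2 at 48 h these 986.5 reads were part of the 2296 reads of the gene. Splits between similar transcripts are estimates and are less certain than the sum for the gene.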

How the data were processed

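Libraries came from a strand-marking poly(A) kit (TruSeq Stranded mRNA), per the labels' protocols. The authors deposited 1 Salmon table per library, per the submitters' processing notes, which per the file headers holds estimated counts and TPM per transcript. Salmon's version, index and genome build were not given in the sources used here. Transcripts were matched to GENCODE M21 (GRCm38): 140137 of 140658 matched, and the 521 others, with 0.135% to 0.181% of the reads, were left out. The deposited estimated counts were summed per gene and rounded. The deposited TPM values were summed per gene and used for levels per length.

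Counts were tested with edgeR 4.0.16 under R 4.3.3 (filterByExpr with minimum count 10 and minimum total count 15, TMM scaling, quasi-likelihood F test, two-sided), with 1 mean per group over all 12 libraries. A gene was called when its p, adjusted by Benjamini-Hochberg over every gene tested, was under 0.05, and fold changes are log2 with their standard error (SE). CPM values were computed from TMM-scaled library sizes. The fits were checked on simulated counts. The 42 members, the other lists and the libraries left out were chosen with earlier results of these data known.

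Tests are printed for members that passed or, where none passed, for the 4 with the smallest p, and in the 9 libraries also for the 4 largest and 4 smallest changes. From other lists up to 4 genes with the smallest p of a comparison were named. Promoters were printed for 4 members with both motifs and the highest mean TPM at 3 h. The alternatives were RLE size factors, limma-voom (limma 3.58.1), no filter, a floor of 1 CPM in at least 3 libraries, DESeq2 1.42.0, replicate blocks, fits of 9 and 10 libraries, and each library left out in turn. Leaving out each of the 9 libraries in turn was added after seeing the data.

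The labels give the groups shared replicate numbers but do not say what they pair. At 48 h the deviations of same-numbered libraries of the 2 genotypes correlated at 0.56, 0.74 and 0.56 across genes, so these were treated as pairs in the block alternative, although libraries 1 and 3 correlated as well with each other's partner (0.6 and 0.58). At 3 h the values were 0.15, 0.08 and 0.05, and across times they lay between -0.01 and 0.02, so those numbers are not read as pairs. The block alternative was still fitted by number for those comparisons and for the interaction.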

Additional observations from a re-analysis of the deposited data

Results flagged for a closer look

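In the 9 libraries, the difference between the libraries labelled Chd5-/- and wild type changed between 3 h and 48 h for 13 of the 42 genes (31.0%). This is by the test of that change itself (edgeR interaction, adjusted p under 0.05), where 40.4% of all genes did so. The share of the members was thus below that of all genes, and the genes below are listed as descriptions. With all 12 libraries 0 of the 42 passed. The log2 value is the genotype difference at 48 h less that at 3 h, and each rests on 2 libraries per group, 3 in the Chd5-/- group at 3 h.

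The cyclin Ccnb2 had the largest value, -1.3, and its adjusted p stayed between 3.76e-05 and 0.00133 when each of the 9 libraries was left out. In the 10 libraries, which keep wild-type replicate 1 at 3 h, it was the only member that passed, at -1.21. Incenp had -0.73, Kif20b -0.62, Kif11 -0.57 and Cenpf -0.56, genes that were higher in the libraries labelled Chd5-/- at 3 h. Aurkb had 0.61 and Kif18b 0.59, genes called higher in them at 48 h. Prc1 had -0.41. Of the others, Aurka had -0.47, Cdca3 0.46, Bub1b -0.38, Mki67 -0.34 and Mad2l1 0.3, and these 5, with Cenpf, lost their call when a single library was left out, with adjusted p-values of up to 0.174, 0.2, 0.303, 0.17, 0.294 and 0.0727.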

How the results depend on the processing

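RLE size factors and both other filters moved no count of called genes by over 1.5 times, except that 1 member fell in the libraries labelled Chd5-/- without a filter. DESeq2 called 2091 genes at 3 h, 920 at 48 h and 385 for the interaction, against 1077, 440 and 37 by edgeR. limma-voom called 11 and 21 members lower over time in wild type and in the libraries labelled Chd5-/-. The fit of 9 libraries called 8659 genes at 3 h, 7791 at 48 h, 12539 and 13029 over time, and 6669 for the interaction. Among members it called 20 higher and 4 lower at 3 h, 11 and 5 at 48 h, 42 lower over time in both genotypes, and 4 and 9 for the interaction. The fit of 10 called 2439, 843, 6068, 6165 and 499 genes, and among members 2 higher at 3 h, 1 higher at 48 h, 42 lower over time in both genotypes and 1 lower for the interaction. The cause of these differences was not tested.

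With each library left out in turn, the genes called ranged from 419 to 1636 at 3 h, 184 to 1454 at 48 h, 1464 to 5419 and 1708 to 7280 over time in wild type and in the libraries labelled Chd5-/-, and 15 to 310 for the interaction. Members called lower over time ranged from 0 to 39 and from 0 to 38. In the latter genotype 6 were called without wild-type replicate 2 at 48 h and 1 without wild-type replicate 1 at 3 h. The median of the members at 48 h was -0.16 and turned to 0.07 and 0.05 in the fits of 9 and 10, to 0.31 and 0.3 without replicates 1 and 3 labelled Chd5-/-, and ranged from -2.57 to 2.4. That of the interaction ranged from -2.73 to 2.11 and was 0.1 and 0.08 without those 2 libraries. At 48 h Anln turned to 0.25 and 0.23 in the fits of 9 and 10 and Bub1 to 0.0 in the fit of 9. With 1 library left out, Kif23 ranged from -2.81 to 1.99, Anln from -3.34 to 2.76, Mki67 from -3.17 to 2.36 and Bub1 from -2.97 to 2.36. For the interaction Kif20b ranged from -2.8 to 0.37, Cenpf from -3.31 to 0.91, Anln from -4.18 to 1.93 and Kif11 from -3.89 to 1.68.

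With a replicate block, 777 genes were called over time in wild type, 1914 in the libraries labelled Chd5-/- and 18 for the interaction, and 2 members, Kif20b and Cenpf, fell in the libraries labelled Chd5-/-. The block called 1384 genes and 0 members between genotypes at 3 h. Not every library correlated best with its own number at 3 h. The blocked counts at 3 h, over time and for the interaction thus rest on numbers that are not read as pairs. At 48 h, where they may pair the genotypes, the block called 502 genes against 440 and 0 members, so it changed no call of a member there.

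Depth is low for some 48 h values, with 33 reads of Spc25 in wild-type replicate 1. DESeq2 gave an adjusted p to 2 of the 42 genes, so its counts for them say little.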
